A study of Mus musculus with 24 samples.

Results

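The genes described here were the ligands and receptors of axon guidance: semaphorins with their plexin and neuropilin receptors, ephrins with their Eph receptors, Slits with their Robo receptors, and netrins with the receptor Dcc. They were chosen by name, as the protein-coding genes whose symbols mark these families. The naming rule used no measured value, although the families were picked with earlier results of these data known. The rule found 66 of the 53465 genes in the table: 20 semaphorins, 9 plexins, 2 neuropilins, 5 ephrin-A and 3 ephrin-B ligands, 9 EphA and 5 EphB receptors, 3 Slits, 4 Robos, 5 netrins including the netrin-G genes Ntng1 and Ntng2, and Dcc. They were measured by RNA-seq in 24 tumors, 3 from each of 8 BURP (BBN-induced Urothelium Roswell Park) lines. Male and female C57BL/6NTac mice were given 0.1% BBN, a nitrosamine that causes bladder tumors in rodents, in drinking water from 8 weeks of age for up to 36 weeks. Their bladder tumors were then passaged under the skin of sex-matched mice of the same strain. Of the basal/squamous (Ba/Sq) lines, males gave BURP-12BaSq, BURP-18BaSq and BURP-17BaSq, and females gave BURP-24BaSq, BURP-21BaSq and BURP-25BaSq. BURP-16SR, sarcomatoid and classed as stroma-rich in most but not all replicates, and BURP-19NE, classed as neuroendocrine-like and poorly differentiated, both came from males. Every line went back to a single donor tumor, no tumor-free bladder was analysed here, and all 24 tumors shared the carcinogen and the site of growth. A difference between lines was therefore also a difference between donors, and p-values over tumors measured the spread between tumors of these donors.

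These families steer growing axons by attraction and repulsion, and most of them are also used outside the nervous system. Secreted class 3 semaphorins bind neuropilins, which pair with plexins to signal, whereas most membrane-bound semaphorins bind plexins directly. Ephrins are anchored to the membrane, so that Eph receptor tyrosine kinases are engaged by neighbouring cells, and in epithelia this contact helps to keep cell layers apart. Slits bind Robo receptors and netrin-1 binds Dcc, neogenin and the Unc5 receptors. Several members, such as Plxnd1 and Robo4, are well known in blood vessels.

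Total counts ran from 9295708 to 25370320 per tumor. Levels were given as CPM, counts scaled to the TMM-normalized library size. A gene with 3 counts, set as the floor of a library, stood at 0.11 to 1.28 CPM. The upper end belonged to BURP-25BaSq tumor C102-M30, in which 62.8% of counts fell on the ribosomal loci Gm26917 and CT010467.1, against 5.8% to 19% elsewhere. Tumor C102-M1, labelled BURP-25BaSq, correlated over all genes with the BURP-21BaSq tumors at r from 0.987 to 0.992 and with the other two of BURP-25BaSq at 0.956 and 0.962, as a description on log2(CPM + 1), so its label was in doubt. It kept that label unless stated. The 10 basal and squamous markers summed to between 10991 and 25343 CPM in the 18 Ba/Sq tumors, between 29.6 and 88.4 in BURP-19NE and between 6.17 and 14.2 in BURP-16SR. The RNA of only part of the neuroendocrine markers was high in BURP-19NE. Ncam1, a neural cell adhesion molecule, averaged 309 CPM there. Syp averaged 0.424 CPM, Chga 0.0737 and Chgb 0.156, and Insm1 and Neurod1 were at 0. Syp RNA did not set the lines apart, with means from 0.156 CPM in BURP-25BaSq to 0.92 CPM in BURP-18BaSq. The paper took the label from correlation with consensus classifiers, and reported high synaptophysin, the Syp protein, by staining in BURP-19NE and in BURP-16SR. Protein was not measured here, so these RNA levels do not test the label. RNA came from whole tumors, in which fewer cells of a type and less RNA per cell cannot be told apart.

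Levels were compared between genes only after division by exon length, as CPM per kilobase of exon (RPKM). Plexin-B2 and the receptor Epha2 stood highest among the members, with means over the 8 lines of 44.8 ± 22.4 RPKM for Plxnb2 and 47.9 ± 24 RPKM for Epha2 (SD, n = 8 lines). Sema4b, the most abundant semaphorin, ran from 50.5 to 425 CPM over the Ba/Sq tumors and lay within that range in both other lines, where it was not called. Efnb1, an ephrin-B, averaged 27.8 ± 22.3 RPKM, and Sema4b, a membrane-bound semaphorin, 20.9 ± 13.4 RPKM (SD, n = 8). These 4 genes were above 1 RPKM in all 8 lines. Ephb4 led the EphB receptors at 15.1 ± 6.02 RPKM, and Efna5 the ephrin-A ligands at 14.2 ± 6.82 RPKM. Nrp2 averaged 9.86 ± 5.26 RPKM and Ntn4, a netrin of basement membranes, 7.03 ± 6.24 RPKM. Slits and Robos were lower. Slit3 led its family at 4.27 ± 4.08 RPKM and Robo1 at 2.05 ± 1.66 RPKM. Dcc was the scarcest family, at 0.0188 ± 0.0323 RPKM and below 1 RPKM in every line. The number of members at or above 1 RPKM ran from 30 in BURP-19NE to 43 in BURP-18BaSq, with 38 in BURP-16SR.

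**Figure D1:**
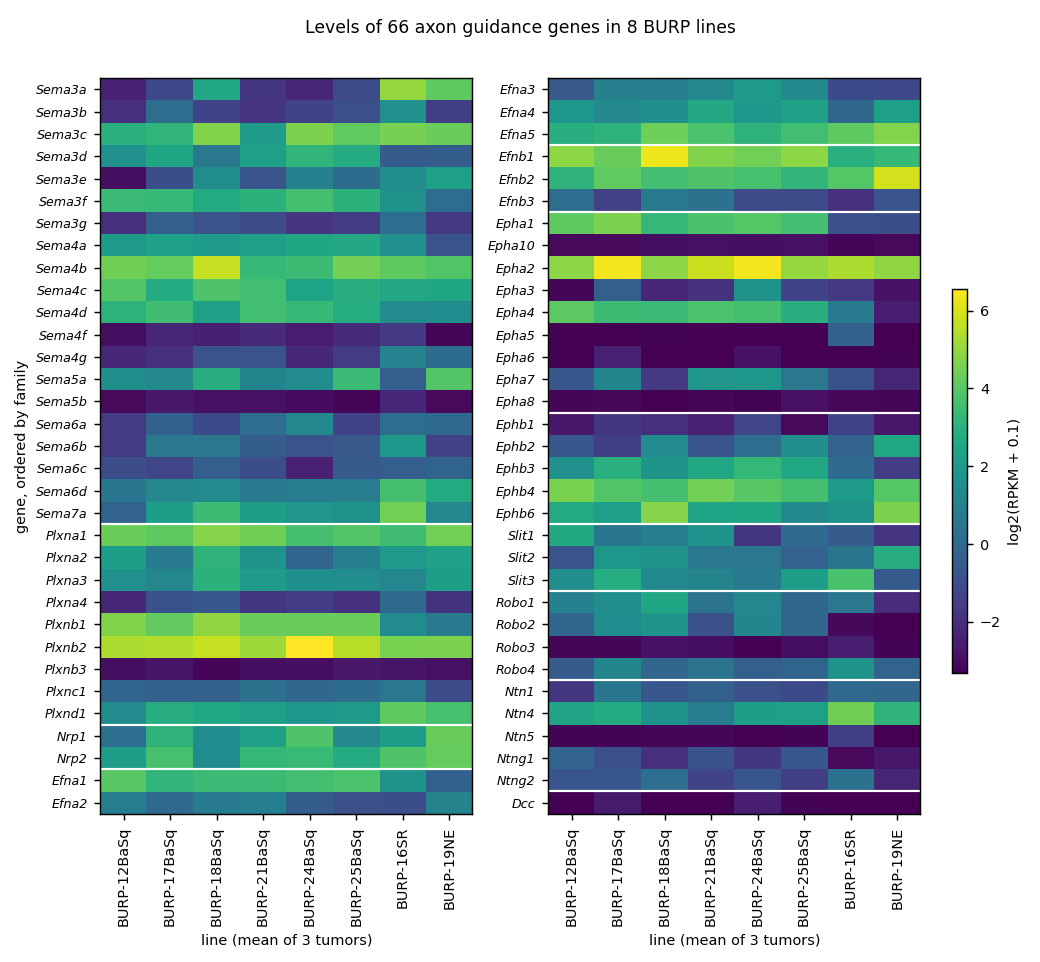
Mean level of each of the 66 genes in each line, as log2(RPKM + 0.1), with 3 tumors a line and white rules between families. The Ba/Sq lines are the first 6 columns, and Plxnb2 and Epha2 are bright in every column whereas Dcc is dark throughout.

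The summed level of a family per length differed between lines in its own way. EphA receptors summed to 30.6 RPKM in BURP-19NE and 44 RPKM in BURP-16SR, below all 6 Ba/Sq lines, which ran from 49.1 to 123 RPKM. EphB receptors were lowest in BURP-16SR, at 9.4 RPKM, and highest in BURP-19NE, at 46.2 RPKM, with the Ba/Sq lines between 23.8 and 45.7 RPKM. Neuropilins summed to 37.4 RPKM in BURP-19NE, above the Ba/Sq range of 5.4 to 24.4 RPKM, and netrins to 24 RPKM in BURP-16SR, above the Ba/Sq range of 3.21 to 8.99 RPKM. Robos stood at 0.945 RPKM in BURP-19NE, below the Ba/Sq range of 2.6 to 9.87 RPKM. These sums are descriptions and were not tested.

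To ask how the lines of other subtypes departed from the common one, BURP-19NE and then BURP-16SR was set against the 18 Ba/Sq tumors by edgeR's quasi-likelihood test over all genes. A gene was called at an adjusted p under 0.05 and a change of more than 2-fold (the Benjamini-Hochberg adjusted p over all genes tested). Of the 66 members, 58 passed the filter on low counts for BURP-19NE, and 11 of these were called higher and 19 lower. Of all 20995 genes tested, 9.33% were called higher and 15% lower, so that the members' shares, 19% and 32.8%, lay above both. The median log2 fold change was −0.75 over the members and −0.14 over all genes. In 15 called members the 3 BURP-19NE tumors did not overlap the Ba/Sq tumors, which was so for 13.9% of all genes against 25.9% of the members. For BURP-16SR, 59 members were tested, with 10 called higher and 17 lower. The share called lower, 28.8%, stood above the 8.62% of all 21028 genes, and the share called higher, 16.9%, above 10.5%. The median log2 fold change was −0.42 over the members and −0.03 over all genes, and 13 members, 22%, were called with no overlap, against 9.52% of all genes. The members that failed the filter were Epha5, Epha6, Epha8, Epha10, Ntn5, Plxnb3, Sema5b and, for BURP-19NE, Robo3. Both comparisons share the Ba/Sq tumors, and their values are given side by side.

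The counts depended on what was taken as a sample. With counts summed so that each line was 1 sample, on the assumption that the lone line varies like the Ba/Sq lines, 10 members were still called for BURP-19NE: Efna1, Epha1, Epha4, Ephb3, Plxnb1, Robo2, Sema3f and Sema4a lower, and Efnb2 and Sema6d higher. In this fit 15.9% of members tested and 4.35% of all genes were called. For BURP-16SR there were 5 among the members tested in both fits, 8.47%, against 3.34% of all genes: Epha1, Epha4, Ephb4 and Plxnb1 lower and Sema6d higher. Epha5 and Ntn5 were also past the threshold, but they passed the filter only through BURP-16SR, so that their calls support nothing. Single tumors mattered too, for all genes as for the members. The 11 higher members of BURP-19NE became 7, 5 and 6 without C80-M1, C80-M3 and C80-M30, and its 19 lower members 12, 14 and 12. Calls over all genes fell from 5108 to 3625, 3527 and 4038. The 17 lower members of BURP-16SR became 11, 14 and 12 without C73-M10, C74-MNT and P5, and its 10 higher members 8, 8 and 12. There the calls over all genes fell from 4029 to 2670, 3227 and 2953.

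**Figure D2:**
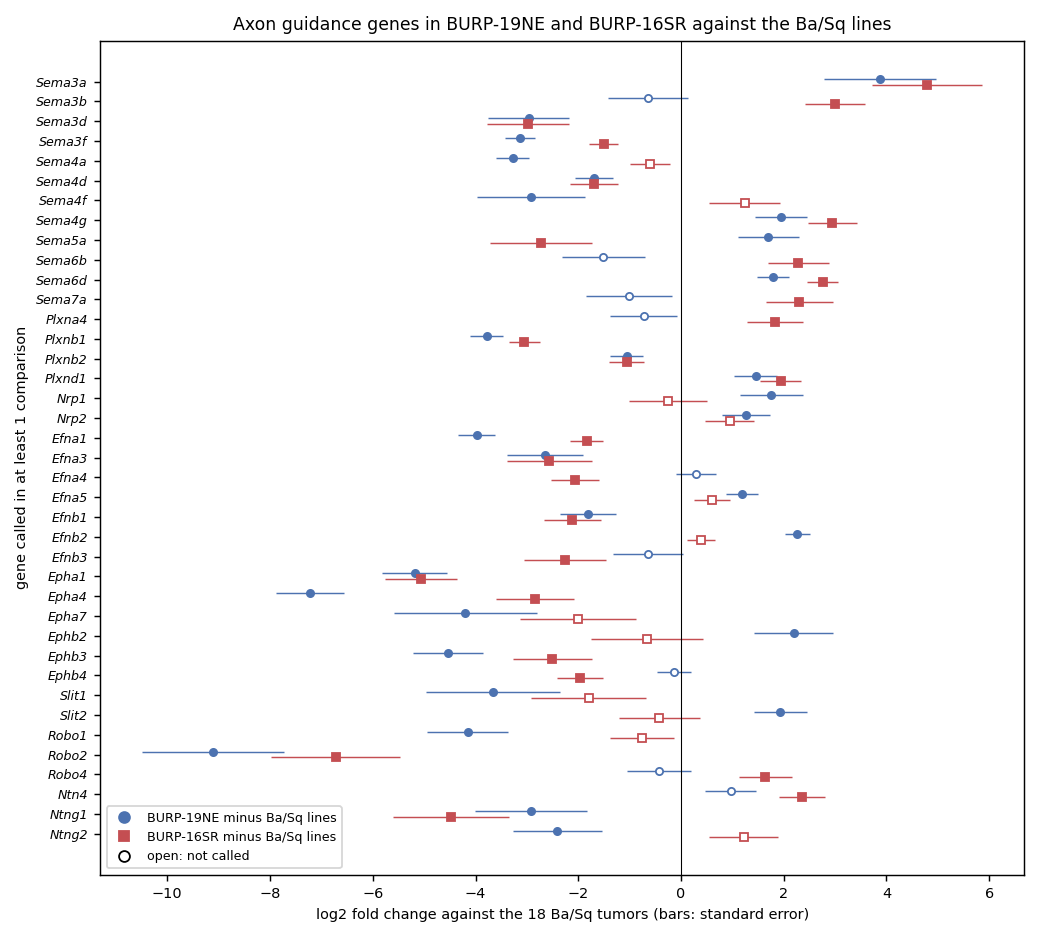
Log2 fold change of each gene called in at least 1 of the comparisons of BURP-19NE (circles) and BURP-16SR (squares) with the 18 Ba/Sq tumors, with bars for the standard error and open symbols for values not called. Most filled symbols lie left of 0, and Sema5a is filled on opposite sides.

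Lower in both lines were 13 members: the receptors Epha1, Epha4, Ephb3, Plxnb1, Plxnb2 and Robo2, the ligands Efna1, Efna3, Efnb1, Sema3d, Sema3f and Sema4d, and Ntng1, a netrin anchored to the membrane. In what follows, values of BURP-19NE are given for tumors C80-M1, C80-M3 and C80-M30 and those of BURP-16SR for C73-M10, C74-MNT and P5, in that order. For Plxnb1, a receptor of Sema4d, levels were 12.1, 20 and 14.7 CPM in BURP-19NE and 24.3, 27.4 and 23.8 CPM in BURP-16SR. The Ba/Sq tumors ran from 131 to 331 CPM with a median of 207, so that no tumor of either line came near them. The log2 fold change was −3.79 ± 0.32 (SE, adjusted p = 1.11e-08) in BURP-19NE and −3.05 ± 0.3 (SE, adjusted p = 1.25e-07) in BURP-16SR. Plxnb2, its more abundant relative, was at 179, 225 and 168 CPM in BURP-19NE and 230, 162 and 166 CPM in BURP-16SR against 221 to 790 CPM (median 341), with smaller log2 fold changes of −1.06 ± 0.33 (SE, adjusted p = 0.0168) and −1.05 ± 0.34 (SE, adjusted p = 0.0276), and Sema4d itself changed by −1.7 in each line on the log2 scale.

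Among the EphA receptors, Epha1 stood at 2.29, 1.26 and 1.32 CPM in BURP-19NE and at 2.06, 2.66 and 0.491 CPM in BURP-16SR, against 7.44 to 133 CPM, median 60.8, in the Ba/Sq tumors. The groups did not overlap, with log2 fold changes of −5.18 ± 0.63 (SE, adjusted p = 2.21e-06) and −5.05 ± 0.7 (SE, adjusted p = 1.64e-05). Epha4, which binds ephrins of both classes, was at 0.679, 0.737 and 0.499 CPM in BURP-19NE and between 34 and 168 CPM, median 104, among the Ba/Sq tumors, a log2 fold change of −7.23 ± 0.66 (SE, adjusted p = 4.26e-08). In BURP-16SR it was at 13.8, 24.6 and 0.281 CPM, below the Ba/Sq tumors in all 3 but very uneven, with a log2 fold change of −2.84 ± 0.75 (SE, adjusted p = 0.00854). Epha2 behaved differently. Its levels of 157, 126 and 138 CPM in BURP-19NE and 262, 106 and 200 CPM in BURP-16SR lay within the Ba/Sq range of 64.2 to 566 CPM, and neither comparison called it. Ephb3 was at 0.764, 1 and 3.18 CPM in BURP-19NE, below the Ba/Sq range of 7.57 to 83.2 CPM (median 37.2), with a log2 fold change of −4.53 ± 0.68 (SE, adjusted p = 3.14e-05). In BURP-16SR its levels were 3.08, 16.3 and 0.281 CPM, and C74-MNT overlapped the Ba/Sq tumors.

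Robo2, a Slit receptor, was almost absent from both lines. In BURP-19NE it had 3 counts over the 3 tumors together, and its Ba/Sq mean was 632 times that level, with a 95% exact Poisson interval of 216 to 3066 that covers counting error only. In BURP-16SR its levels were 0.171, 0.625 and 0 CPM, all below the Ba/Sq tumors at 2.51 to 88.8 CPM, median 29.5. The fitted log2 fold changes were −9.11 ± 1.37 (SE, adjusted p = 3.17e-05) and −6.72 ± 1.25 (SE, adjusted p = 0.000448). The call in BURP-16SR did not hold with lines as samples, at an adjusted p of 0.0632. Dcc was at 0 in all 3 tumors of BURP-16SR, at least 1.27-fold lower than the Ba/Sq mean of 0.327 CPM, and had 1 count in BURP-19NE. Most Ba/Sq tumors were at 0 as well, and their mean was raised by P4 of BURP-17BaSq at 2.43 CPM and C81-M1 of BURP-24BaSq at 2.1 CPM. Neither line was called against the Ba/Sq tumors for Dcc.

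The ligands that were lower in both lines were mostly ephrins and class 3 semaphorins. Efna1, a ligand of EphA receptors, was at 1.78, 1.05 and 1.27 CPM in BURP-19NE, at 6.34, 7.27 and 4.07 CPM in BURP-16SR, and between 11.9 and 35.6 CPM, median 19.8, in the Ba/Sq tumors. The 3 groups were thus in separate ranges, with log2 fold changes of −3.98 ± 0.37 (SE, adjusted p = 4.72e-08) and −1.83 ± 0.32 (SE, adjusted p = 0.000214). Efnb1 was at 32.6, 41 and 27.1 CPM in BURP-19NE and 27.2, 32.4 and 19 CPM in BURP-16SR, below the Ba/Sq range of 54.7 to 308 CPM, whose median was 79.1. Sema3f, a ligand of Nrp2, was at 5.77, 5.42 and 5.13 CPM in BURP-19NE and 11.1, 18.7 and 19.8 CPM in BURP-16SR, and here too every tumor lay below the Ba/Sq range of 23.6 to 79.3 CPM. Efna3, Sema3d and Ntng1 overlapped the Ba/Sq range in both lines. In BURP-16SR, Efna3 was at 0.257, 0.156 and 2.24 CPM and Ntng1 at 0, 0.156 and 0.281 CPM, against Ba/Sq medians of 5.06 and 2.85 CPM. Sema3d was at 3.77, 9.93 and 2.38 CPM there against a median of 40.6 CPM, and its call was lost without C73-M10 (adjusted p = 0.0576) or without P5 (adjusted p = 0.0521). The Efna3 call in BURP-16SR was lost without C73-M10 (adjusted p = 0.138) or without C74-MNT (adjusted p = 0.127). The basal and squamous marker list moved with these members, since all 10 of its genes were called lower in each line, and its part in these differences was not tested.

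Higher in both lines were 4 members: Sema3a, Sema4g, Sema6d and the receptor Plxnd1. Sema3a, a secreted repellent that acts through Nrp1, was at 254, 287 and 181 CPM in BURP-19NE and 375, 292 and 658 CPM in BURP-16SR. Most Ba/Sq tumors had very little of it, with a median of 2.61 CPM, but the range of 0.446 to 157 CPM was wide because of BURP-18BaSq, which held 157, 24.3 and 64.5 CPM. The log2 fold changes were 3.87 ± 1.09 (SE, adjusted p = 0.00901) and 4.79 ± 1.07 (SE, adjusted p = 0.00244). With lines as samples they were not called, at adjusted p of 0.208 and 0.173. Sema6d, a membrane-bound semaphorin that binds plexin-A1, was at 76.2, 65.2 and 64.3 CPM and at 112, 94 and 186 CPM, above the Ba/Sq range of 8.47 to 40.6 CPM (median 18.8). Its log2 fold changes of 1.79 ± 0.31 (SE, adjusted p = 0.000179) and 2.75 ± 0.3 (SE, adjusted p = 6.44e-07) were called with lines as samples as well. Sema4g was at 5.94, 15 and 5.86 CPM and at 14.4, 10.6 and 26.9 CPM, against a Ba/Sq range of 0.828 to 7.47 CPM and a median of 1.65. Its call in BURP-19NE was lost without C80-M3, at an adjusted p of 0.128.

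Plxnd1, the receptor of Sema3e, was at 91.7, 123 and 64.4 CPM in BURP-19NE and at 115, 146 and 116 CPM in BURP-16SR. The Ba/Sq tumors ran from 10.8 to 98.4 CPM, median 26.4, and the highest was BURP-17BaSq tumor C152-M1. The log2 fold changes were 1.45 ± 0.42 (SE, adjusted p = 0.0117) and 1.94 ± 0.4 (SE, adjusted p = 0.00123). Of the 12 endothelial markers, 7 were called higher in BURP-16SR, whose summed levels were 267, 474 and 284 CPM, and C152-M1 had the highest sum of all Ba/Sq tumors, 489 CPM. C152-M1 also had the highest Ba/Sq sums of the fibroblast, pericyte and smooth muscle, macrophage, adipocyte, B cell, Schwann and nerve and mesenchymal lists. The part of these cells in the Plxnd1 levels was not tested. Other lists moved with the 4 higher members too. Called higher were 5 of 8 mesenchymal markers in BURP-19NE and 6 of 8 in BURP-16SR, but Snai2 of that list was called lower in both. In BURP-16SR 8 of 10 pericyte and smooth muscle, 4 of 10 fibroblast and 6 of 6 B cell markers were called higher as well. Over all genes tested, 9.33% were called higher in BURP-19NE and 10.5% in BURP-16SR. In BURP-19NE 7 of 8 skeletal muscle markers were called higher, with sums of 643, 4.31 and 8.03 CPM. The part of these lists was not tested. In BURP-19NE no endothelial marker was called and the sums were 105, 70.6 and 105 CPM, within the Ba/Sq range of 43.7 to 489 CPM. Of these markers, Pecam1 and Cdh5 averaged 15.2 and 18.8 CPM there. Their means in the Ba/Sq lines ran from 12.6 to 48.2 and from 13.2 to 54.1 CPM. The part of endothelial cells in the Plxnd1 level of BURP-19NE was not tested.

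**Figure D3:**
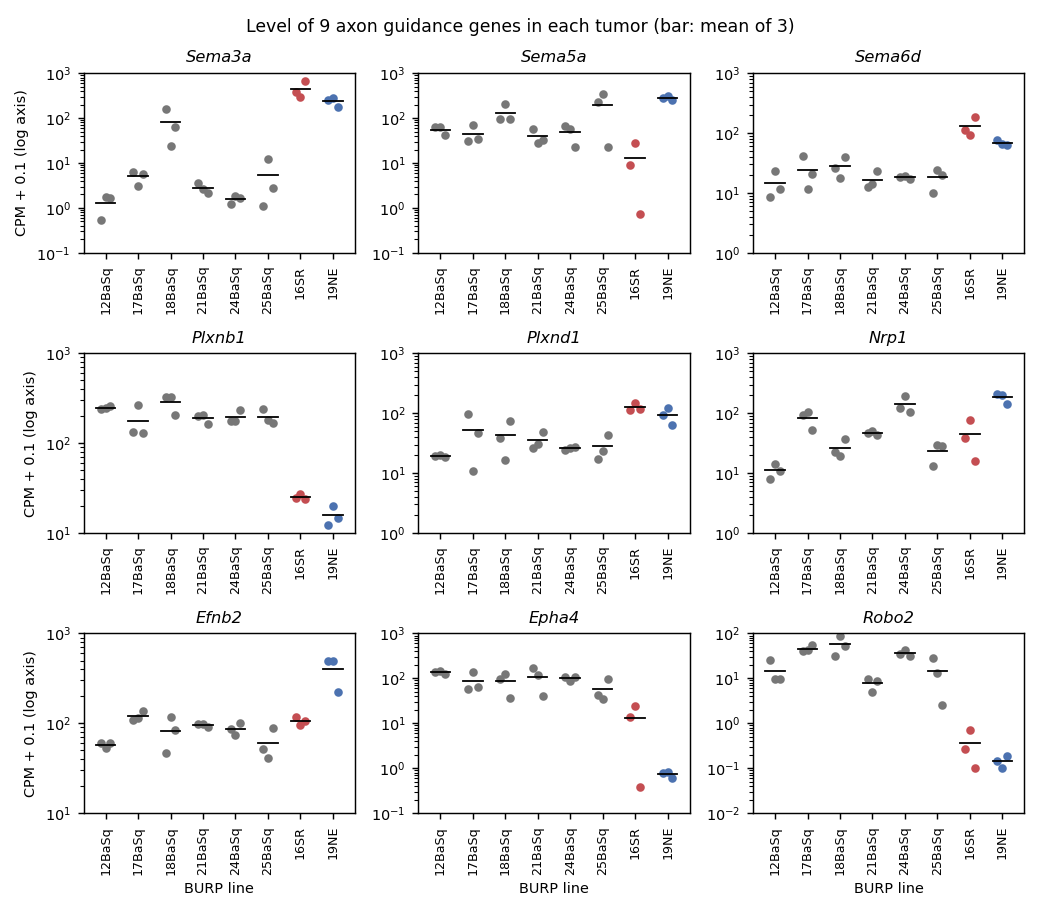
Level of 9 genes in each of the 24 tumors, as CPM + 0.1 on a log axis, by line, with points for tumors and a bar for the mean of 3. BURP-16SR (red) and BURP-19NE (blue) lie apart from the 6 Ba/Sq lines (grey) for Plxnb1, Epha4 and Robo2 below and for Sema6d above, and Sema3a is high in BURP-18BaSq as well.

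The promoters of 4 members that moved in the same direction in both lines are shown, to let their sequences be set beside their levels: Epha1, Epha4 and Robo2, which were lower, and Plxnd1, which was higher. Each sequence holds the 250 bases before the RefSeq transcription start on build GRCm38.p6, written 5′ to 3′ on the strand of the gene, and for all 4 this start was the annotated end of the gene. Capitals mark matches on either strand to 5 motifs. The GC box was searched as GGGCGG and the E-box of Snail and Zeb repressors as CAGGTG. The CCAAT box was searched by those letters, the TATA box as TATAAA and the AP-1 site as TGACTCA.
Epha1 (chr6:42373269-42373518, minus strand): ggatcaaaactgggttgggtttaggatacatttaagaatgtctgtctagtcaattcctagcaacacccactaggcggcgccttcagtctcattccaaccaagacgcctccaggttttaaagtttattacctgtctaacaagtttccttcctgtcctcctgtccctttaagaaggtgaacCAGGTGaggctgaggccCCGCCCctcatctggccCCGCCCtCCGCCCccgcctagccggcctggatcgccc
Epha4 (chr1:77515089-77515338, minus strand): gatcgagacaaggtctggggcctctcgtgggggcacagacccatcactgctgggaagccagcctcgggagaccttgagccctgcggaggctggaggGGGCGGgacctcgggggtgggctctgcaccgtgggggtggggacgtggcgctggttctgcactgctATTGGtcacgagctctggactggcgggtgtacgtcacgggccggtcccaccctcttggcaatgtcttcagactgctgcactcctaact
Robo2 (chr16:74411826-74412075, minus strand): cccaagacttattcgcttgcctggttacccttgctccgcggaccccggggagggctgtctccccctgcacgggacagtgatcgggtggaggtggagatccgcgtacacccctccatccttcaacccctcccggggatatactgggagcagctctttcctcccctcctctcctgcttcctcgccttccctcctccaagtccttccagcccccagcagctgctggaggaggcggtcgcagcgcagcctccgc
Plxnd1 (chr6:115995006-115995255, minus strand): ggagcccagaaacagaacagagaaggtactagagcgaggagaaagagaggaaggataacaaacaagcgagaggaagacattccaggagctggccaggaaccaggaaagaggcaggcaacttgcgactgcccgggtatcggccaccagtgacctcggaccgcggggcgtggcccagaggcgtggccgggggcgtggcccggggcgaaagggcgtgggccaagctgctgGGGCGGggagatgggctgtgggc

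The Epha1 window had 3 GC boxes and 1 E-box, that of Epha4 1 GC box and 1 CCAAT box, that of Plxnd1 1 GC box, and that of Robo2 no match. G and C made up 54.4% of the bases for Epha1, 66% for Epha4, 65.6% for Robo2 and 64.8% for Plxnd1. Windows were found for 57 of the 66 members and for 16521 protein-coding genes in all. A GC box was in 71.9% of the members' windows and 44.5% of all windows, a CCAAT box in 29.8% and 36.1%, and an E-box in 14% and 16.6%. A TATA box was in 3.51% of the members' windows against 11.9% of all, and an AP-1 site in 1.75% against 3.93%. These are matches of letters only, and no factor was measured at these sites.

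A further 12 members were called in BURP-19NE and not in BURP-16SR. Set directly against each other, the lines differed by a call in 6 of them, Efnb2, Nrp1, Ntng2, Robo1, Sema4a and Slit1. They did not in Efna5, Epha7, Ephb2, Nrp2 and Slit2, at adjusted p from 0.106 to 0.302, and Sema4f was not tested. Efnb2, an ephrin-B known from arterial endothelium and a partner of Ephb4, was at 489, 498 and 223 CPM, above the Ba/Sq range of 41.3 to 137 CPM (median 87.2), while BURP-16SR, at 119, 95.1 and 107 CPM, lay inside it. Its log2 fold change in BURP-19NE was 2.27 ± 0.25 (SE, adjusted p = 5.87e-07), and it was called with lines as samples. Its receptors did not share one direction. Ephb2 was at 80.3, 82.9 and 62.6 CPM against a Ba/Sq median of 9.52 CPM and a range of 0.414 to 73.3 CPM, a log2 fold change of 2.19 ± 0.77 (SE, adjusted p = 0.0318). Ephb4, at 62.7, 91.3 and 59.4 CPM, lay within the Ba/Sq range of 18.7 to 128 CPM and was not called, and Ephb3 was lower, as above. The Ephb2 call was lost when any 1 of the BURP-19NE tumors was left out, at adjusted p from 0.0726 to 0.115.

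Neuropilins were higher in BURP-19NE as well. Nrp1, a co-receptor of Sema3a, was at 210, 202 and 144 CPM, against 7.91 to 195 CPM with a median of 40.2 in the Ba/Sq tumors and 38.8, 78.3 and 16.1 CPM in BURP-16SR. All 3 tumors were above the Ba/Sq median, and C80-M30 lay below the highest Ba/Sq tumor, C81-M30 of BURP-24BaSq. The log2 fold change was 1.76 ± 0.61 (SE, adjusted p = 0.0314), and without any 1 of the 3 tumors the adjusted p lay between 0.0647 and 0.124. Nrp2 was at 277, 169 and 208 CPM, against 11.4 to 228 CPM and a median of 83.8, with a log2 fold change of 1.27 ± 0.46 (SE, adjusted p = 0.039). In BURP-16SR it was at 164.9, 153 and 190.2 CPM and was not called. BURP-19NE thus had Sema3a, Nrp1 and Nrp2 above their Ba/Sq medians in 3 of 3 tumors, whereas in BURP-16SR this held for Sema3a and Nrp2 and in 1 of 3 tumors for Nrp1.

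The Slit family did not share one direction in BURP-19NE. Slit2, a secreted Robo ligand, was at 146, 160 and 231 CPM, above every Ba/Sq tumor (8.4 to 110 CPM, median 34.5), with a log2 fold change of 1.93 ± 0.52 (SE, adjusted p = 0.00686) that was not called without C80-M30 (adjusted p = 0.0614). Robo1, the Robo with the highest mean per length over the 8 lines, was at 2.21, 2.37 and 2.27 CPM in BURP-19NE. This was below the Ba/Sq range of 4.47 to 143 CPM and its median of 34.9, a log2 fold change of −4.15 ± 0.79 (SE, adjusted p = 0.00037). In BURP-16SR, Robo1 was at 16.3, 37.8 and 16.1 CPM, within the Ba/Sq range. The lowest Ba/Sq value of Robo1 belonged to C102-M1, the tumor whose label was in doubt. Slit1 was at 1.23, 1.05 and 0.953 CPM in BURP-19NE, within a very wide Ba/Sq range, and was called lower at −3.66 ± 1.3 (SE, adjusted p = 0.0342). Slit3 was at 3.99, 0.421 and 6.45 CPM against a Ba/Sq median of 13.1 CPM and was not called. Per length, BURP-19NE had the lowest means of the 8 lines for Robo1, Robo2, Slit1 and Slit3 and the highest for Slit2, whereas Robo4 was lower in BURP-12BaSq and BURP-24BaSq.

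Of the other members called in BURP-19NE and not in BURP-16SR, Sema4a was the most clear-cut. It was at 2.59, 1.63 and 3.9 CPM against 14.5 to 43.9 CPM (median 25.9), a log2 fold change of −3.28 ± 0.31 (SE, adjusted p = 8.03e-08), and was called with lines as samples. Epha7 was at 2.25, 0.737 and 0.0454 CPM against a Ba/Sq median of 14.6 CPM, and its range of 0 to 51.8 CPM included them. Its call was lost without C80-M3 (adjusted p = 0.101) or C80-M30 (adjusted p = 0.0967). Efna5 was at 96.8, 114 and 110 CPM, above all but the highest Ba/Sq tumor at 103 CPM, with a median of 37. Ntng2 and Sema4f, both lower, were below 0.6 CPM in every BURP-19NE tumor.

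In BURP-16SR and not in BURP-19NE, 9 members were called, 6 of them higher, and the direct difference between the lines was called for all 9. Sema3b, a secreted semaphorin, was at 14.8, 13.3 and 16.1 CPM, above the Ba/Sq range of 0.251 to 9.51 CPM (median 1.17), while BURP-19NE held 0.594, 1.32 and 1.72 CPM. Its log2 fold change was 3 ± 0.59 (SE, adjusted p = 0.000706). Ntn4 was at 64, 60.6 and 118 CPM, again above every Ba/Sq tumor (2.79 to 35.5 CPM, median 16.9), with a log2 fold change of 2.35 ± 0.45 (SE, adjusted p = 0.000614). BURP-19NE lay between, at 36.9, 40.2 and 18.2 CPM. Sema7a, a membrane-anchored semaphorin that binds plexin-C1, was at 94, 77 and 43.9 CPM against a Ba/Sq median of 13 CPM and a highest value of 56.3. It was not called without C73-M10, at an adjusted p of 0.0848. Sema6b was at 13.2, 18.2 and 14 CPM, Plxna4 at 18.4, 14.7 and 8.56 CPM and Robo4, an endothelial Robo, at 12.9, 22.4 and 16.4 CPM, against Ba/Sq medians of 2.39, 3.06 and 3.89 CPM. For all 3 of these genes the highest Ba/Sq tumor was C152-M1 of BURP-17BaSq. Its endothelial, fibroblast, pericyte and smooth muscle, macrophage, adipocyte, B cell, Schwann and nerve and mesenchymal sums were all the highest of the Ba/Sq tumors. The part of any of these cells was not tested. With lines as samples, none of Sema3b, Ntn4, Sema7a and Sema6b was called, at adjusted p from 0.0878 to 0.228.

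Called lower in BURP-16SR and not in BURP-19NE were Ephb4, Efna4 and Efnb3. Ephb4 was at 15.5, 34.1 and 7.99 CPM against a Ba/Sq median of 76.7 CPM, with a log2 fold change of −1.97 ± 0.45 (SE, adjusted p = 0.00304), and it was called with lines as samples. The lowest Ba/Sq tumor, at 18.7 CPM, was C102-M30, the shallow library. Efna4 was at 1.89, 1.17 and 1.33 CPM and Efnb3 at 0.514, 0.391 and 0.631 CPM, against medians of 5.64 and 2.21 CPM. No EphA, EphB, ephrin-A or ephrin-B member was called higher in BURP-16SR among the 18 tested, and 9 were called lower. Over all genes tested, 10.5% were called higher and 8.62% lower. This pooling of families was not planned, and of the 9 only Epha1, Epha4 and Ephb4 were called with lines as samples. Epha5, which failed the filter, was at 11.2, 26 and 0 CPM in BURP-16SR, at 0 in BURP-19NE and at most 0.167 CPM in the Ba/Sq tumors, and is given as a description.

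The 3 tumors of BURP-16SR differed widely among themselves. In the paper, most replicates of this line correlated highly with the stroma-rich class and the remainder with the neuroendocrine-like class. Which tumors these were is not stated there. The name P5 has the form of the paper's passage labels, unlike C73-M10 and C74-MNT. In P5, Sema5a was at 0.631 CPM, Slit2 at 1.12, Ephb2 at 0.351 and Slit3 at 0.771 CPM, whereas C73-M10 and C74-MNT had 8.91 and 28.1 CPM of Sema5a, 23.2 and 76.6 of Slit2, 3.68 and 25.9 of Ephb2, and 59.2 and 180 CPM of Slit3. Among the 3 tumors, Epha4, Epha5 and Ephb3 followed the same order, with P5 lowest and C74-MNT highest. P5 was in turn highest of the 3 for Sema3a, Sema4g, Sema6d, Ntn4 and Efna5. The summed level of 10 fibroblast markers was 609 CPM in P5, 7856 CPM in C73-M10 and 20877 CPM in C74-MNT, in the same order as the first group of genes. The pericyte and smooth muscle sum, at 173, 371 and 682 CPM in P5, C73-M10 and C74-MNT, and the T cell sum, at 1.89, 44.6 and 50.7 CPM, had that order as well. Other cell type lists did not. In the same order of tumors, the endothelial sum was 284, 267 and 474 CPM, the macrophage sum 177, 878 and 700 CPM and the B cell sum 2.17, 353 and 12 CPM. The urothelial and luminal sum ran the other way, at 608, 471 and 269 CPM. The part of any of these cells was not tested. The 8 mesenchymal markers varied less, with 5136 CPM in P5, 4954 in C73-M10 and 6249 in C74-MNT. Plxnb1 hardly varied, at 23.8, 24.3 and 27.4 CPM. Without P5, 12 of the 62 members tested were called higher and 12 lower in BURP-16SR, and 2953 of all 21808 genes were called.

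**Figure D4:**
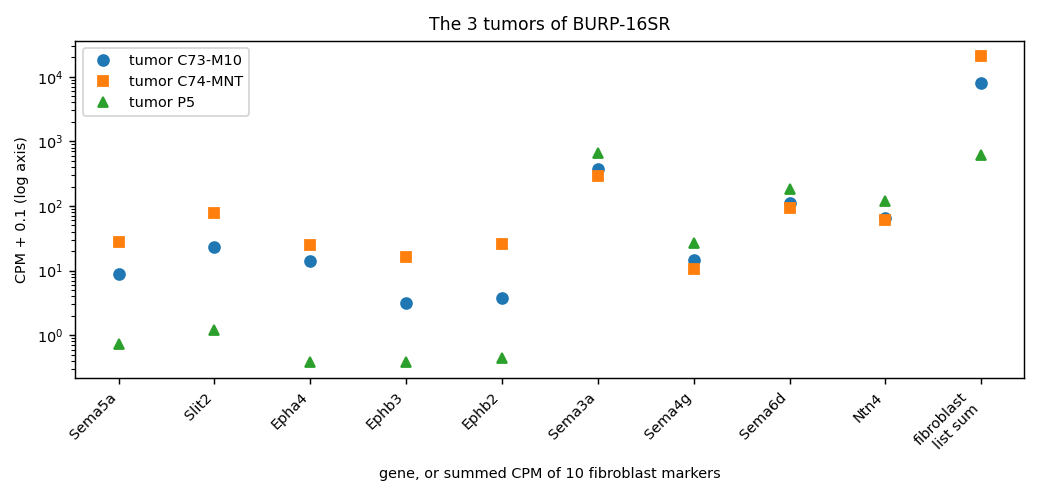
Level of 9 genes and the summed level of 10 fibroblast markers in each of the 3 BURP-16SR tumors, as CPM + 0.1 on a log axis. Tumor P5 is lowest for Sema5a, Slit2, Epha4, Ephb3, Ephb2 and the fibroblast sum and highest for Sema3a, Sema4g, Sema6d and Ntn4.

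Setting BURP-16SR against BURP-19NE directly, 53 members were tested, of which 15 were called higher and 8 lower in BURP-16SR. These shares, 28.3% and 15.1%, compared with 14.8% and 8.86% of all 17556 genes, and the median log2 fold change was 0.32 over the members and 0.06 over all genes. In 21 called members, 39.6%, the 3 tumors of one line were all above those of the other, against 23.1% of all genes. The largest differences in favour of BURP-16SR were Epha4 at 4.43 ± 1.31 (SE, adjusted p = 0.04), Sema6b at 3.84 ± 0.36 (SE, adjusted p = 0.00112), Sema3b at 3.68 ± 0.41 (SE, adjusted p = 0.00186) and Ntng2 at 3.67 ± 0.91 (SE, adjusted p = 0.0232). Robo1 at 3.45 ± 0.41 (SE, adjusted p = 0.0022) and Sema7a at 3.35 ± 0.4 (SE, adjusted p = 0.00209) followed. Epha4 and Sema4a overlapped between the lines, since P5 was at 0.281 CPM of Epha4 and at 2.66 of Sema4a. The calls of Epha4, Ntng2 and Sema4a were lost without any 1 tumor other than P5, with adjusted p up to 0.143. The 8 lower members became 5 without C73-M10, 4 without C80-M1, 4 without C80-M3 and 5 without C80-M30. Without the same tumors, calls over all genes went from 4147 to 3356, 2845, 2890 and 3128. Without C74-MNT and P5 the lower members became 10 and 11, with 4134 and 5545 genes called.

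Lower in BURP-16SR than in BURP-19NE were Ephb6, an Eph receptor without kinase activity, Ephb4, Efna2, Efna4, Efnb2, Efnb3, Nrp1 and Sema5a. Ephb6 was at 116, 85.6 and 76.3 CPM in BURP-19NE and 15.2, 10.4 and 10.4 CPM in BURP-16SR, a log2 difference of −2.86 ± 0.25 (SE, adjusted p = 0.000983). Neither line was called against the Ba/Sq tumors for Ephb6, whose range there was 4.68 to 125 CPM with BURP-18BaSq at the top. Efna2 was at 5.14, 3.95 and 4.09 CPM in BURP-19NE and 0.943, 1.25 and 0.491 CPM in BURP-16SR. Efna4 was at 5.73, 10.3 and 7.35 CPM in BURP-19NE, within the Ba/Sq range. Sema5a, a semaphorin with thrombospondin repeats, was the 1 member called in opposite directions against the Ba/Sq tumors. It was at 274, 310 and 257 CPM in BURP-19NE and at 8.91, 28.1 and 0.631 CPM in BURP-16SR, with a Ba/Sq median of 60.2 CPM and a range of 23 to 336. The direct difference was −4.38 ± 1.09 (SE, adjusted p = 0.0232), and this call was lost without C73-M10 or any 1 BURP-19NE tumor, at adjusted p from 0.0605 to 0.0853. Without the same tumors the direct calls of Ephb4 and Nrp1 were lost too, at adjusted p from 0.0665 to 0.116. Its higher call in BURP-19NE, 1.7 ± 0.6 (SE, adjusted p = 0.0322), was lost without any 1 BURP-19NE tumor. Its lower call in BURP-16SR, −2.72 ± 0.99 (SE, adjusted p = 0.048), was lost in 12 of the alternatives, among them leaving out C73-M10 (adjusted p = 0.171) or P5 (adjusted p = 0.143) and 9 of the 18 Ba/Sq tumors 1 at a time. With lines as samples neither was called, at adjusted p of 0.174 and 0.219.

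The 6 Ba/Sq lines differed among themselves in 36 of the 58 members tested, 62.1%, against 39.4% of all 20523 genes. The range between the highest and the lowest line had a median of 2.24 on the log2 scale over the members and 1.29 over all genes. Without C102-M1 there were 37 such members of 59, against 9756 of all 21271 genes. With C102-M1 counted as a BURP-21BaSq tumor, an alternative chosen after the data were seen, there were 39 of 59, against 10211 of all 21335 genes. All 3 ephrin-B ligands, both neuropilins and 13 of 19 semaphorins differed, but none of the 4 netrins tested. Of the 17 members called in the same direction in BURP-19NE and BURP-16SR, 8 also differed among the Ba/Sq lines, Sema3a and Efnb1 among them, and 9 were not called there. A small spread among the Ba/Sq tumors itself favours a call against them. Of the 9, Plxnb1 ranged over 0.74 on the log2 scale (adjusted p = 0.14), Epha1 over 1.33 (adjusted p = 0.303), Epha4 over 1.22 (adjusted p = 0.431) and Sema6d over 0.95 (adjusted p = 0.382).

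The widest ranges were those of Epha3 at 7.74 (adjusted p = 0.00293), Dcc at 7.27 (adjusted p = 0.0288), Sema3e at 6.61 (adjusted p = 0.00104) and Sema3a at 6.09 on the log2 scale (adjusted p = 0.000106). Epha3 was at 63.5, 5.66 and 14.6 CPM in the BURP-24BaSq tumors C81-M1, C81-M30 and P2 and at 0, 0.371 and 0 CPM in C41-M3, C47-M30 and C47-M3 of BURP-12BaSq, with the other 4 lines between. Sema3e, the ligand of Plxnd1, was also lowest in BURP-12BaSq, at 0.324, 0.0412 and 0.44 CPM, and reached 63.6, 6.77 and 9.31 CPM in C148-M3, C149-M3 and P4 of BURP-18BaSq. Sema3a was highest in the same line, where C148-M3 led. For Dcc the highest tumors were P4 of BURP-17BaSq at 2.43 CPM and C81-M1 at 2.1 CPM, 11 of the 18 tumors were at 0, and the call was lost without C81-M1 (adjusted p = 0.0573) or without C149-M3 (adjusted p = 0.052).

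Slit1 ranged over 5.05 (adjusted p = 0.00951), from 26.1, 41.4 and 45.3 CPM in BURP-12BaSq to 1.07, 1.07 and 1.36 CPM in BURP-24BaSq. In BURP-25BaSq it was at 0.484 and 0.425 CPM in C102-M3 and C102-M30 but at 16.9 CPM in C102-M1, and without C102-M1 the range widened to 6.29. Epha7 ranged over 3.9 (adjusted p = 0.0218), with 30.5, 27.6 and 46.9 CPM in BURP-24BaSq and 0.522, 1.09 and 4.88 CPM in BURP-18BaSq. Sema7a ranged over 3.81 (adjusted p = 0.0234) between BURP-12BaSq, at 2.27, 3.13 and 2.38 CPM, and BURP-18BaSq, at 56.3, 17.5 and 34.9 CPM. The Sema7a call was lost without any 1 BURP-12BaSq tumor or without C148-M3 of BURP-18BaSq, at adjusted p from 0.0576 to 0.0762, and that of Epha7 without C149-M3, at 0.0514. Ephb1 ranged over 3.71 (adjusted p = 0.0064), from at most 0.279 CPM in BURP-25BaSq to between 1.13 and 3.18 CPM in BURP-24BaSq.

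**Figure D5:**
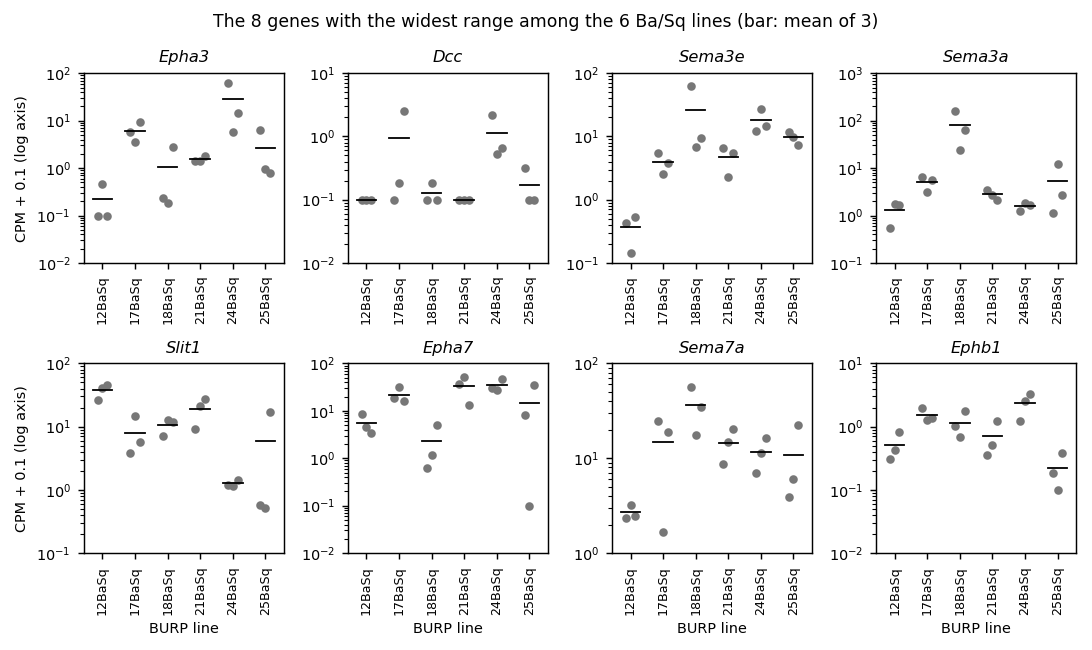
Level of the 8 genes with the widest range among the 6 Ba/Sq lines in each of their 18 tumors, as CPM + 0.1 on a log axis, with a bar for the mean of 3. BURP-12BaSq is low for Epha3, Sema3e, Sema3a and Sema7a and high for Slit1, and in BURP-25BaSq 1 tumor stands above the other two for Slit1.

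Between the 9 tumors of the male and the 9 of the female Ba/Sq lines, edgeR called 0 of the 56 members tested, against 2.31% of all 17922 genes. At an unadjusted p under 0.05 there were 12 members, 21.4%, against 23.1% of all genes, and the smallest adjusted p was 0.0518, for Sema3a. DESeq2 called 6 of the 56 members, and 768 of all 17922 genes. The 6 were Sema3a, Robo1, Sema4b, Plxna2 and Ephb6, higher in the males, and Efna3, higher in the females. Their edgeR log2 differences, male minus female, were 3.42, 1.25, 1.12, 1.37, 1.54 and −1.13, with adjusted p from 0.0518 to 0.0887. Among the male lines BURP-18BaSq stood out for Sema3a, which averaged 82.1 CPM there against 1.21 and 4.94 CPM in BURP-12BaSq and BURP-17BaSq, and for Ephb6, at 101.8 CPM against 24.3 and 17.7 CPM. In the female lines Sema3a averaged 2.69, 1.49 and 5.32 CPM. With lines as samples no member and no gene was called, and the sex of a line and its donor cannot be told apart with 3 lines a sex.

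Other genes of these pathways were taken from 2 lists chosen by role. Of 17 partners, such as the Unc5 netrin receptors, neogenin and adhesion molecules of the L1 family, 14 were tested in BURP-19NE, with 3 called higher and 4 lower, and 16 in BURP-16SR, with 4 higher and 3 lower. These were 50% and 43.8% of the partners tested, against 24.3% and 19.2% of all genes. Neo1, a netrin receptor, was higher in both, by 1.87 ± 0.48 in BURP-19NE (SE, adjusted p = 0.00527) and 2.35 ± 0.48 in BURP-16SR (SE, adjusted p = 0.00101) on the log2 scale, as was Nrcam, at 2.32 ± 0.63 (SE, adjusted p = 0.00716) and 6.36 ± 0.62 (SE, adjusted p = 1.24e-07). Nrcam averaged only 1.3 CPM in BURP-19NE and 0.262 CPM in the Ba/Sq tumors. Most of its mean of 21.3 CPM in BURP-16SR came from a single tumor with 786 counts. L1cam, an adhesion molecule of growing axons, was lower in both, at −4.89 ± 0.62 (SE, adjusted p = 3.67e-06) and −4.09 ± 0.63 (SE, adjusted p = 5.45e-05). Chl1, its close relative, was lower in BURP-19NE, at a mean of 0.568 CPM against 112 CPM in the Ba/Sq tumors, and Unc5b was higher in BURP-16SR, at 111 against 41.9 CPM.

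Of 48 cytoplasmic effectors, 46 were tested in BURP-19NE, with 2 called higher and 10 lower, and 47 in BURP-16SR, with 5 higher and 6 lower. These shares, 26.1% and 23.4%, were near the 24.3% and 19.2% of all genes. Their median log2 fold changes were −0.11 and 0.23, against −0.14 and −0.03 over all genes. Dpysl3, of the collapsin response mediator family that acts downstream of Sema3a, averaged 644 CPM in BURP-19NE and 137 CPM in BURP-16SR against 34.2 CPM in the Ba/Sq tumors, and was called in both. Tiam1, an activator of Rac that binds Eph receptors, averaged 0.745 and 12.4 CPM against 127 CPM. Ngef, the exchange factor ephexin of EphA receptors, averaged 0.0912 CPM in BURP-19NE against 17.5 CPM in the Ba/Sq tumors, a log2 fold change of −7.46 ± 0.61 (SE, adjusted p = 7.32e-09). Limk2, a kinase that acts on cofilin, was lower in both lines, and Limk1 was higher in BURP-16SR. Between BURP-16SR and BURP-19NE, 12 effectors were higher and 4 lower of 44 tested, 36.4% against 23.6% of all genes. Among the 6 Ba/Sq lines 11 of 13 partners, 84.6%, and 20 of 46 effectors, 43.5%, differed, against 39.4% of all genes. Between the sexes 1 of 11 partners, 9.09%, and 2 of 45 effectors, 4.44%, were called, against 2.31% of all genes.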

How the data were processed

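RNA-seq was analysed for 24 tumors, 3 from each of 8 lines. The line came from the sample titles, and sex and subtype from the study. Total RNA was depleted of ribosomal RNA and sequenced in pairs. The authors aligned the reads with STAR 2.6.0a to GRCm38 with GENCODE M16 and deposited RSEM 1.3.1 estimated counts per gene, with no normalization and no filter stated. The strand setting of the counting is not given in the sources used here, so reads of overlapping antisense genes cannot be told apart. Of the values, 12.5% were not whole, and counts were rounded. Symbols were matched for 99.8% of identifiers.

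The gene families and all gene lists were chosen with earlier results of these data known, although the rule for members uses names only. Counts were TMM-normalized, filtered with filterByExpr and tested with edgeR 4.0.16 (quasi-likelihood, R 4.3.3), with Benjamini-Hochberg adjustment over all genes tested, and a call needed an adjusted p under 0.05 and over 2-fold. The tests were run on simulated data in which tumors were independent, with a dispersion of 0.1 and no donor effect. This cannot check them for tumors that share a donor. Among the 6 Ba/Sq lines 27% of simulated DESeq2 calls were false, against 3.59% for edgeR. In the other comparisons DESeq2 stood at 0.503% to 8.29%. The tumors of a line share a donor, so p-values measure the spread between these tumors. Intervals and floors cover counting error only.

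Tumor values are given for up to 8 members with the largest called change in each direction, the 8 widest ranges among the Ba/Sq lines and the top member of each family. Other members named were chosen after their values were seen. Alternatives were DESeq2 1.42.0, its size factors, other filters on low counts, all 24 tumors in 1 fit, the ribosomal loci left out, counts summed per line, and tumors left out 1 at a time. Promoter windows came from RefSeq (GRCm38.p6). A marker gene is not reported here.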

Additional observations from a re-analysis of the deposited data

Results flagged for a closer look

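Among the 9 tumors of each sex of the Ba/Sq lines, 6 of 88 groups of values had a tumor set apart from the rest, judged by Dixon's ratio at the 95% level, which is its gap to the nearest tumor over the whole range on log2(CPM + 1). Chance flags about 1 in 20 groups. The ratio was 0.935 for Dcc in the males, where P4 of BURP-17BaSq was at 2.43 CPM and the next tumor at 0.0836, and 0.611 for Dcc in the females, where C81-M1 was at 2.1 CPM and the next at 0.552. The other 4 came from C102-M30 of BURP-25BaSq, the library with 62.8% of its counts on 2 ribosomal loci. It was lowest for Epha7 (ratio 0.559, 0 CPM against 8.18) and Ephb4 (ratio 0.65, 18.7 CPM against 65.9). It was highest for Sema3a (ratio 0.585, 12.3 CPM against 3.41) and Sema3b (ratio 0.542, 3.83 CPM against 1.74).

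In 12 members the 2 lines had log2 fold changes of opposite sign against the Ba/Sq tumors and the direct difference was called. As log2 values of BURP-16SR minus BURP-19NE, it was 2.6 for Plxna4, 2.11 for Robo4, 3.68 for Sema3b, 3.84 for Sema6b, 3.35 for Sema7a, 3.67 for Ntng2 and 2.49 for Ephb1. It was −2.32 for Efna4, −1.96 for Nrp1, −4.38 for Sema5a, −2.2 for Efna2 and −2.86 for Ephb6. Both lines were called against the Ba/Sq tumors for Sema5a alone among the 12, and neither line for Efna2, Ephb1 and Ephb6.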

How the results depend on the processing

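With counts summed per line, 2 members were called higher and 8 lower in BURP-19NE, and 3 higher and 4 lower in BURP-16SR, where Epha5 and Ntn5 passed the filter through that line only. Where each tumor had to hold 10 counts of a gene, BURP-16SR had 5 higher and 9 lower of 30 tested, and 5 of 40 were lower in BURP-16SR than in BURP-19NE. In these 2 fits 1594 of all 10820 and 2828 of all 14092 genes were called in either direction. Between the sexes, DESeq2 called 6, the ten-count filter 2, all 24 tumors in 1 fit 12 and the fit without C102-M30 2. In the same order, 768 of 17922, 191 of 11147, 1473 of 21383 and 448 of 18270 genes were called. Leaving out 1 tumor gave 5 to 13 higher and 12 to 20 lower in BURP-19NE, 11 to 18 lower in BURP-16SR, 4 to 11 lower in BURP-16SR than in BURP-19NE, and 0 to 2 between the sexes. For the same 4 comparisons in that order, calls over all genes ran from 3527 to 5314, 2670 to 4346, 2845 to 5545 and 287 to 557. The cause of these differences was not tested. Several of these fits hold other numbers of samples or genes than the main fits, whereas DESeq2 used the same tumors and genes. Of 1344 values of named members under the alternatives, 1259 kept direction and call, 85 lost the call and 0 reversed. These members were named because the main fit called them, and most alternatives left out only 1 tumor. Agreement was thus largely built in, and the tally is no measure of robustness. It also counts the fits without C102-M1 and without C102-M30 2 times each, and skips fits whose filter a member failed. Summing per line was not possible for BURP-16SR against BURP-19NE or among the 6 lines. No paired analysis was possible because replicate numbers were given in accession order, or as passages, and mark no shared animal. Levels near 3 counts a library limit Dcc, Robo2, Epha5, Sema4f and Ntng1.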
